A study of Mus musculus with 6 samples.

Results

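The interferon regulatory factors (IRFs) are a family of transcription factors, and their transcripts were followed here in long-term stem cells of the blood, sorted out of mouse bone marrow. Every probe set of a listed family gene that the platform annotation gives to 1 gene was taken, which found 14 of the 45037 probe sets in the table, for 8 of the 18193 genes with such a probe set: Irf1, Irf2, Irf3, Irf4, Irf5, Irf7, Irf8 and Irf9. RNA came from 3 samples of wildtype mice (Irf8+/+) and 3 samples of mice labelled knockout (Irf8-/-), all untreated and all placed at 3 weeks by the labels, and each sample was hybridised to 1 Affymetrix array. The cells were sorted as lacking lineage markers and CD48 and as positive for c-kit, Sca-1 and CD150. The labels call the samples biological replicates without naming animals, so p-values measure only the spread between these samples. The sources used here do not name the knocked-out allele, the strain or any pooling of animals. Values are log2 expression values, so a difference of 1 is a doubling, and each array gives 1 value per probe set.

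All IRF proteins bind DNA through a shared tryptophan-rich domain that reads repeats of GAAA, as in the interferon-stimulated response element. IRF3, IRF5 and IRF7 are activated by phosphorylation after virus or microbial sensing and switch on interferon genes, IRF9 joins STAT2 to carry the signal of type I interferon, and IRF1 is induced by interferon and opposed by IRF2. IRF4 and IRF8 act with ETS-family partners such as PU.1 in lymphoid and myeloid cells, and IRF8 is needed for monocyte and dendritic cell development.

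Several family genes carry binding letters for interferon signalling in their own promoters, and the 3 such stretches found before a start site are shown, so that the letters can be read. They were read from the RefSeq promoter table (GRCm38.p6), which held 11 start sites for the 8 genes and covers 250 bases before to 50 after each. All 3 lie on the plus strand and before the start site, and capitals mark the matches described below.
Irf1, chr11:53769904-53769952: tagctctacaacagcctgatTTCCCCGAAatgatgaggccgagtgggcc
Irf8, chr8:120736167-120736233: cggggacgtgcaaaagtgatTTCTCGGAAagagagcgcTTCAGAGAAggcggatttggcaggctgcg
Irf2, chr8:46739495-46739549: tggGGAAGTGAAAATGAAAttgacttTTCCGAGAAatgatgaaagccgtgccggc

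The capitals in Irf1 and Irf8, and the rightmost capitals in Irf2, match TTCNNNGAA, the gamma-activated sequence read by STAT dimers. This motif stood in 3 of the 11 family promoters, Irf8 holding it in 2 places, and in 8.3% of all 32851 promoters of the same length. The left capitals in Irf2 join overlapping matches to a composite of an ETS and an IRF site (GGAA, any 2 bases, GAAA) and to the core of the interferon-stimulated response element (GAAA, any 2 bases, GAAA). Each of these stood in 1 of the 11 family promoters, against 2.72% and 3.44% of all promoters. Both strands were searched, and a match describes letters only.

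The arrays differed in their correlations and in marker genes, and the part of these differences in the Irf values was not tested. Array medians ran from 4.85 to 4.96. The array of knockout replicate 3 correlated least with the others, at a mean of 0.827 against 0.854 to 0.876, a correlation across probe sets, which are not independent replicates. Among the sort markers Kit read 8.09 to 10.46 over all 6 arrays and Slamf1 (CD150) 4.71 to 9.11, both lowest in knockout replicate 3, and Ly6a (Sca-1) was not analysed here. Cd48, whose protein the sort excluded, read 3.13 to 4.54 in wildtype but 7.60, 9.42 and 3.55 in knockout replicates 1, 2 and 3. Of the other 6 measured genes whose proteins mark sorted-out cells, Cd3e, Ms4a1 and Itgam read between 2.31 and 4.62, Cd8a 4.55 to 5.23 and Cd4 5.32 to 6.51. The remaining gene, Tfrc, which encodes the transferrin receptor and is widely expressed in dividing cells, read 8.49 to 8.82 in wildtype and 8.93 to 10.01 in knockout. Over this list with Cd48 the summed level ran from 8.89 to 9.30 in wildtype and from 9.82 to 10.33 in knockout. The sum is of unlogged values, so Tfrc and Cd48 carried most of it. The groups overlapped for every gene of the list except Tfrc. All 11 of 11 neutrophil markers had a knockout minus wildtype difference above 0, whereas 43.4% of all genes lay below 0. The groups did not overlap for 4 of them, all higher in knockout, beside 6.67% of all genes. The summed level of the 11 markers ran from 12.38 to 13.04 (log2) in wildtype and from 14.19 to 15.79 in knockout, highest in knockout replicate 3. This sum is also of unlogged values, so the brightest genes weigh most, in knockout S100a8 and S100a9. In such bulk samples fewer cells of a type and less RNA per cell cannot be told apart.

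Irf8, the gene named in the knockout label, was not lower in the arrays carrying that label. Its brighter probe set, 1448452_at, read 4.98, 6.43 and 5.16 in wildtype and 4.91, 6.39 and 6.50 in knockout. The mean over all arrays, 5.73, was close to the 5.71 upper quartile of 28 genes restricted to other tissues, described below. That mean also lay above 54.7% of all single-gene probe sets. Whether a fall in knockout could be seen at this level was not tested. The groups overlapped throughout, with wildtype replicate 2 and knockout replicates 2 and 3 high and the other arrays low. The difference was 0.41 (SE 0.64, 95% interval -1.12 to 1.94; adjusted p = 0.930 in limma), which as a fold runs from 0.461 to 3.84 of the wildtype level.

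The dimmer Irf8 probe set, 1416714_at, ordered the arrays in another way. It read 4.14, 4.02 and 5.08 in wildtype and 4.61, 5.48 and 3.83 in knockout, so that knockout replicate 3 was now the lowest array. The difference was 0.23 (SE 0.51, 95% interval -1.0 to 1.45; adjusted p = 0.956), and it was -0.20 without knockout replicate 2. Both probe sets list the same source sequence in the platform annotation, and the sources used here do not say whether the deletion covers it, so neither checks the labels. Among markers of cell types that use IRF8, the summed level of 6 monocyte and macrophage markers ran from 11.42 to 11.95 in wildtype and from 10.89 to 12.71 in knockout, and that of 5 B cell markers from 8.31 to 9.91 and from 7.70 to 8.62. For 6 dendritic cell markers it ran from 8.26 to 9.46 and from 9.05 to 11.10, so each of these sums overlapped between the groups. Lyz2, at 10.69 to 12.33 over all arrays, carried most of the monocyte and macrophage sum. By the median deviation of its genes from their wildtype means the dendritic cell list lay apart only barely. It stood at -0.049, 0.120 and 0.040 in wildtype and 0.123, 0.220 and 0.482 in knockout. In knockout replicate 3 the genes restricted to other tissues, described below, also had a median deviation of 0.395. Of the 6 dendritic cell genes 5 had a difference above 0. Flt3, which early progenitors also express, and the dim Itgax lay apart, beside 10.9% of all genes. They read 7.99 to 10.55 and 4.56 to 4.99 in knockout against 6.19 to 6.93 and 4.25 to 4.50 in wildtype. Bst2, Siglech, Xcr1 and Cd209a differed by 0.64, 0.094, 0.073 and -0.068, with overlapping groups. The part of these cell type markers in the Irf8 values was not tested.

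Irf4, the closest relative of Irf8 and a regulator of lymphocyte and plasma cell fate, held the only family probe set whose groups did not overlap. Probe set 1421173_at read 3.11, 3.11 and 2.76 in wildtype and 3.20, 3.76 and 3.97 in knockout. Every knockout array lay above every wildtype array, the closest pair being wildtype replicate 1 and knockout replicate 1. The difference was 0.65 (SE 0.25, 95% interval 0.063 to 1.24), which limma gave an unadjusted p of 0.0349 and, adjusted over all probe sets, a p of 0.902, and without knockout replicate 3 it was 0.49 (unadjusted p = 0.0939).

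The other Irf4 probe set, 1421174_at, was built from the same source sequence and did not show this separation. It read 3.86, 4.44 and 4.90 in wildtype and 4.21, 4.14 and 4.41 in knockout, a difference of -0.15 (SE 0.32; adjusted p = 0.952). Both probe sets were dim: 83.4% and 67.0% of all single-gene probe sets read higher. Over 28 genes restricted to other tissues, such as liver, lens and pancreas, the upper quartile of the mean level was 5.71. Both Irf4 probe sets, 1416714_at of Irf8 and 1435271_at of Irf3 lay under it, and 1448452_at of Irf8 lay just above, at 5.73. Of these 28 genes 21 had a difference above 0. Their median difference was 0.18, and -0.050 without knockout replicate 3. Whether such a shift of dim genes enters the Irf4 values was not tested.

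**Figure D1:**
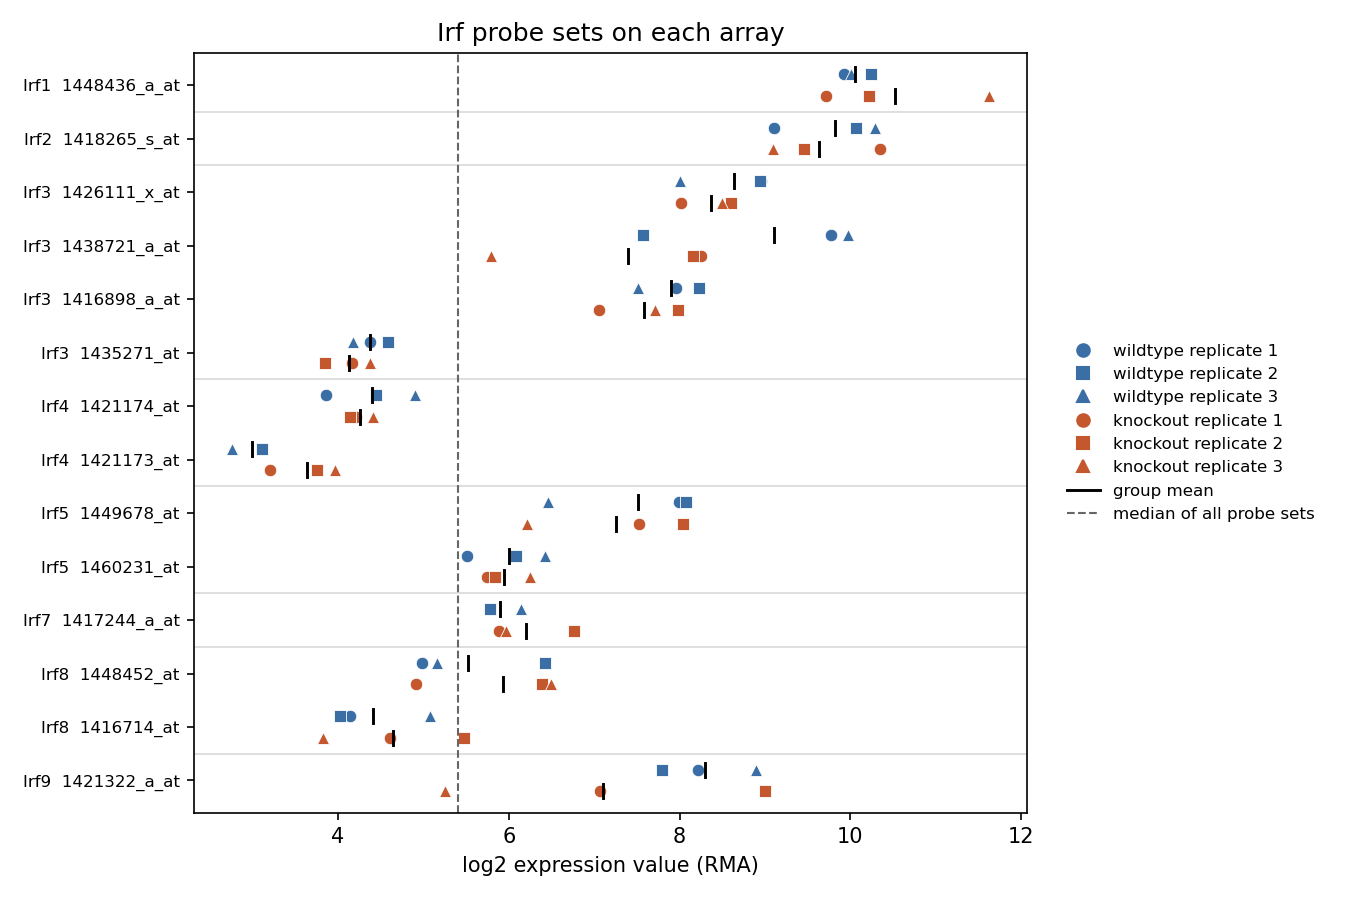
Log2 expression values (x axis) of the 14 Irf probe sets (rows) on each array, blue for wildtype and orange for knockout, with a marker shape per replicate, a black bar at each group mean and a dashed line at the median of all single-gene probe sets, 5.40. The groups overlap in every row except Irf4 1421173_at. Knockout replicate 3 sits far from the other knockout arrays for Irf1 and Irf3 1438721_a_at, while for Irf9 all knockout arrays lie far apart.

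Irf9, the DNA-binding subunit of the ISGF3 complex of type I interferon signalling, varied widely among the knockout arrays. It read 8.21, 7.80 and 8.89 in wildtype and 7.07, 9.0 and 5.25 in knockout. Knockout replicates 1 and 3 lay below all wildtype arrays and knockout replicate 2 above all of them, which gave an SD of 1.88 in knockout against 0.55 in wildtype (n = 3 each). The difference was -1.19 (SE 0.99, 95% interval -3.56 to 1.17; adjusted p = 0.902), and without knockout replicate 3 it was -0.26.

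Stat2, the ISGF3 subunit that activates transcription and a gene singled out after its values were seen, was likewise highest in knockout replicate 2 among the knockout arrays. It read 5.79, 5.15 and 6.30 in wildtype and 4.42, 6.89 and 4.43 in knockout. The 29 measured type I interferon-stimulated genes had median deviations from the wildtype mean of -0.11, -0.038 and 0.26 in wildtype and of -0.37, 0.13 and -0.37 in knockout. Knockout replicate 2 was again the highest knockout array, but here it lay within the wildtype range, and the other knockout arrays lay below that range. These values come from the same arrays, and how far they depend on each other was not tested.

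Irf7, which amplifies type I interferon production and is itself induced by ISGF3, had a difference close to 0 relative to its error. It read 5.78, 5.78 and 6.14 in wildtype and 5.89, 6.76 and 5.97 in knockout, with knockout replicate 2 alone above the wildtype range. The difference was 0.31 (SE 0.44, 95% interval -0.75 to 1.37; adjusted p = 0.925), and it was 0.032 without knockout replicate 2.

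Irf1, a tumour suppressor and activator of interferon-gamma responses, was among the brightest family probe sets, above 96.1% of all single-gene probe sets. It read 9.92, 10.24 and 10.01 in wildtype and 9.71, 10.22 and 11.62 in knockout. Wildtype arrays lay within 0.32 of each other, whereas knockout replicate 3 stood 1.38 above the next array. The difference of 0.46 (SE 0.51; adjusted p = 0.909) became -0.093 without that array.

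Irf2, which competes with IRF1 at shared sites and protects stem cells from chronic interferon signalling, read 9.11, 10.07 and 10.29 in wildtype and 10.35, 9.46 and 9.09 in knockout. The groups covered nearly the same range, and the difference was -0.19 (SE 0.50, 95% interval -1.39 to 1.01; adjusted p = 0.961). In knockout replicate 3 Irf1 was thus at its highest and Irf2 at its lowest of the 6 arrays, and in knockout replicate 1 Irf2 was at its highest and Irf1 at its lowest. This was noticed after the values were seen and has no test. The Irf2 probe set is of a type (s_at) whose probes can match transcripts of more than 1 gene.

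Irf3, the constitutive factor that starts the interferon-beta response, had 4 probe sets, and all 4 differences lay below 0 without passing. The x_at probe set 1426111_x_at, of a type in which some probes can bind other transcripts, read 8.95, 8.94 and 8.01 in wildtype and 8.02, 8.60 and 8.50 in knockout. Probe set 1416898_a_at read 7.96, 8.23 and 7.51 in wildtype and 7.06, 7.98 and 7.71 in knockout. Both put wildtype replicates 1 and 2 high and wildtype replicate 3 and knockout replicate 1 low, and their differences were -0.26 (SE 0.49) and -0.31 (SE 0.51), with adjusted p of 0.945 and 0.934. The dim 1435271_at read 4.37, 4.59 and 4.18 in wildtype and 4.17, 3.85 and 4.38 in knockout, a difference of -0.24 (SE 0.25; adjusted p = 0.904).

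The remaining Irf3 probe set, 1438721_a_at, gave the largest difference of the family and also a wide spread. It read 9.77, 7.57 and 9.97 in wildtype and 8.25, 8.16 and 5.79 in knockout. Wildtype replicate 2 lay below knockout replicates 1 and 2, so the groups overlapped. The difference was -1.70 (SE 0.96, 95% interval -4.02 to 0.61; adjusted p = 0.902), and it moved to -0.90 when knockout replicate 3 was left out and to -2.47 when wildtype replicate 2 was.

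Irf5, an activator of inflammatory cytokine genes downstream of Toll-like receptors, had 2 probe sets that did not separate the groups. Probe set 1449678_at read 7.99, 8.08 and 6.46 in wildtype and 7.52, 8.04 and 6.21 in knockout, low in replicate 3 of both groups, a difference of -0.25 (SE 0.74; adjusted p = 0.965). In 1460231_at the values were 5.51, 6.09 and 6.42 in wildtype and 5.75, 5.84 and 6.25 in knockout, and replicate 3 was the highest array of both groups. Its difference was -0.060 (SE 0.44, 95% interval -1.11 to 0.99; adjusted p = 0.988).

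**Figure D2:**
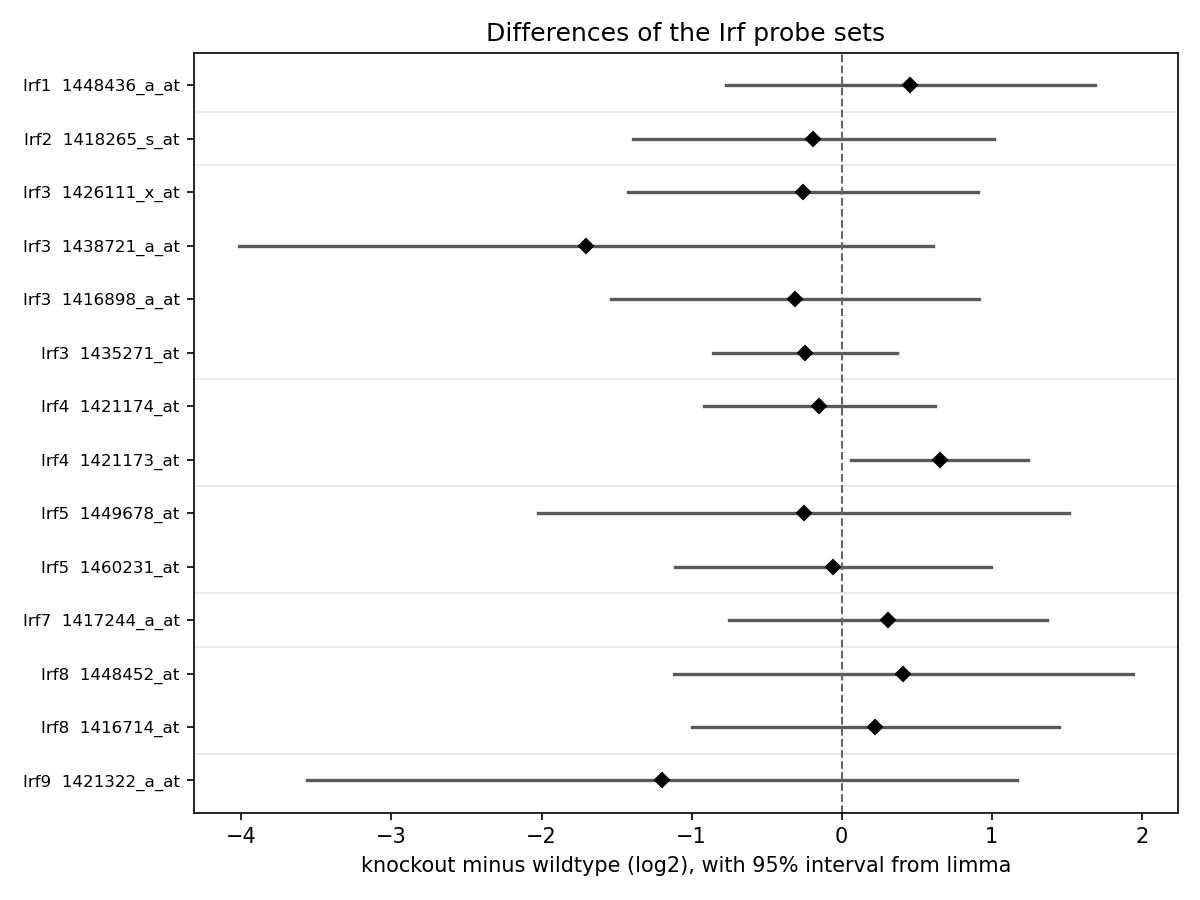
Knockout minus wildtype differences (x axis, log2) of the 14 Irf probe sets, with diamonds for the limma estimate and lines for its 95% interval (n = 3 arrays per group). The intervals of 13 probe sets include 0, and that of Irf4 1421173_at runs from 0.063 to 1.24 before any adjustment for the number of probe sets tested.

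Across the family 0 of 14 probe sets passed at an adjusted p of 0.05 in limma, as did 0 of all 34945 single-gene probe sets (0%). At an unadjusted p under 0.05 there was 1 of 14 family probe sets, beside 4.68% of all probe sets (1634). Groups without overlap were seen in 1 of 14, higher in knockout, beside 10.9% of all probe sets (6.45% higher and 4.48% lower). The family's share was thus near the background. Differences lay below 0 in 9 of 14 probe sets, beside 44.6% of all, with a median of -0.17 in the family and 0.056 over all. Without knockout replicate 3 these were 8 of 14, beside 50%, and 0 of 14 had an unadjusted p under 0.05, beside 4.91%.

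The precision of the differences varied among the members. Standard errors ran from 0.25 for 1421173_at and 1435271_at to 0.99 for Irf9, with a median of 0.51 in the family and 0.48 over all probe sets. The spread within groups (pooled SD) was wider than that of 86.2% of all probe sets for Irf9 and of 85.7% for Irf3 1438721_a_at, and narrower than most for Irf7, at 36.5%. Knockout replicate 3 held the highest value in 3 and the lowest in 5 of the 14 probe sets, whereas over all probe sets it held the highest in 28.9% and the lowest in 15.3%.

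Probe sets of 1 gene were compared by the root mean square difference of their deviations from their own mean over the 6 arrays. This was 0.17 for 1416898_a_at and 1426111_x_at of Irf3, which therefore followed each other closely, and 1.47 to 1.51 between 1438721_a_at and the other Irf3 probe sets. It was 0.60 for the pair of Irf4, 0.99 for that of Irf8 and 1.02 for that of Irf5. Over 30372 such pairs of all genes the median was 0.96, with quartiles of 0.48 and 1.46, so the Irf8 and Irf5 pairs lay near that median. The measure grows with the spread of the values, so a typical size does not show that 2 probe sets move together. In the Irf5 pair replicate 3 was the lowest array of both groups by 1449678_at and the highest by 1460231_at. The Irf8 pair placed knockout replicate 3 highest by 1448452_at and lowest by 1416714_at.

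**Figure D3:**
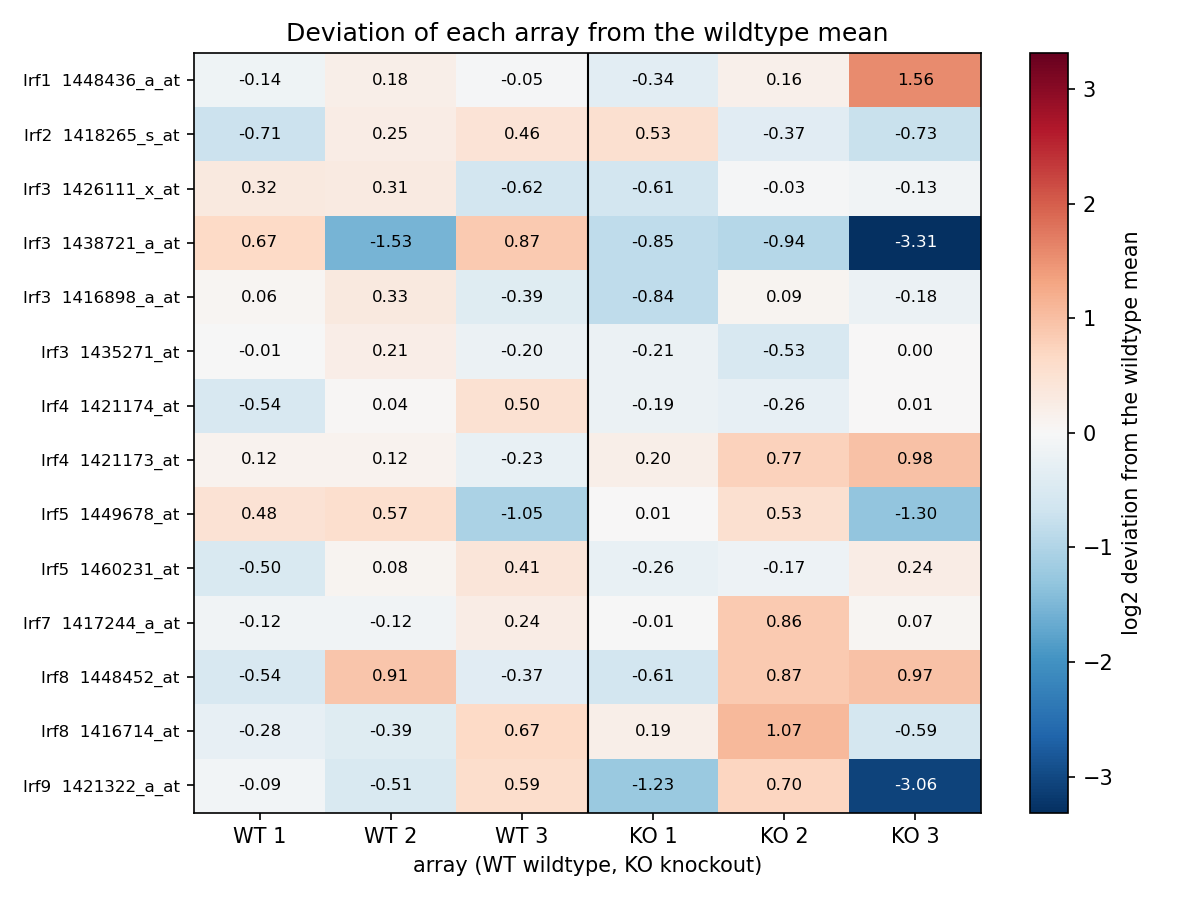
Deviation of each array (columns, WT wildtype and KO knockout) from the wildtype mean of the same probe set (rows), in log2 units, red for higher and blue for lower. The strongest values stand in KO 3, at -3.31 for Irf3 1438721_a_at, -3.06 for Irf9 and 1.56 for Irf1.

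The genes that act around the family were described as lists, with 1 probe set per gene and over 18193 genes, of which 0 passed in limma (0%; 880 had an unadjusted p under 0.05, 4.84%). Among all genes 43.4% had a difference below 0, the median difference was 0.066, and groups did not overlap in 10.9% (6.67% higher and 4.25% lower). Of the sensors, adaptors and kinases that activate IRF proteins 20 of 25 were measured and 0 passed, with 11 below 0 and a median of -0.19, which was -0.011 without wildtype replicate 3, -0.025 without knockout replicate 1 and -0.12 without knockout replicate 2. The groups lay apart for 1 of them, Irak1, a kinase of Toll-like receptor signalling, which read 10.82, 10.17 and 9.99 in wildtype and 9.82, 9.93 and 9.66 in knockout (difference -0.52, SE 0.35).

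Interferon receptors and their STAT partners gave 0 passes in 13 of 14 measured genes, with 8 below 0 and a median of -0.21, which was 0.052 without knockout replicate 3, 0.0065 without knockout replicate 1, -0.40 without knockout replicate 2 and -0.43 without wildtype replicate 1. Socs1, a feedback inhibitor of JAK kinases, was the 1 gene with groups apart: it read 4.27, 4.34 and 4.76 in wildtype and 5.72, 5.36 and 5.30 in knockout. Its difference was 1.00 (SE 0.27; adjusted p = 0.887), and its lowest knockout array lay 0.54 above its highest wildtype array. Both group means, 4.46 in wildtype and 5.46 in knockout, lay under the 5.71 upper quartile of the genes restricted to other tissues.

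Among 17 DNA-binding partners and cofactors of IRF proteins 0 passed, 8 lay below 0 and the median was 0.062, which was -0.0031 without wildtype replicate 3, 0.021 without wildtype replicate 2, 0.0066 without knockout replicate 3 and 0.14 without knockout replicate 2. Ikzf1 (Ikaros), a lymphoid zinc finger factor, read 8.59, 9.95 and 9.61 in wildtype and 8.49, 7.0 and 8.33 in knockout, and Ets1, an ETS-family factor, read 5.54, 5.32 and 6.12 and 4.99, 5.25 and 5.07, each with all knockout arrays below all wildtype arrays. Irf2bpl, which encodes a relative of the IRF2-binding proteins, lay apart in the other direction, at 4.49, 4.13 and 3.96 in wildtype and 4.84, 6.57 and 5.33 in knockout. Their differences were -1.44 (SE 0.64), -0.56 (SE 0.32) and 1.39 (SE 0.47). Spi1 (PU.1), the main ETS partner of IRF4 and IRF8, was chosen for that role and read 7.99, 6.45 and 8.02 in wildtype and 9.72, 8.37 and 7.62 in knockout, with overlapping groups and a difference of 1.09 (SE 0.76).

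In both lists of genes that IRF proteins switch on after interferon, more genes lay apart lower than higher in knockout. The lists were chosen with earlier results of these data known. Of 29 measured type I interferon-stimulated genes 5 lay apart lower and 0 higher, beside 4.25% and 6.67% of all genes, and 0 passed. Differences lay below 0 in 18 and above 0 in 11, with a median of -0.26. The median became -0.011 without wildtype replicate 3, -0.16 without wildtype replicate 2, -0.51 without knockout replicate 2 and -0.56 with probe sets averaged per gene. Ifit2, which binds viral RNA complexes, read 7.05, 6.59 and 6.93 in wildtype and 4.87, 6.58 and 4.60 in knockout, and Oas3, an RNA-activated synthetase, read 5.35, 5.09 and 6.77 and 5.00, 4.33 and 4.07. Their differences were -1.50 (SE 0.59) and -1.26 (SE 0.51), and that of the antiviral gene Rsad2 was -2.79 (SE 0.56; adjusted p = 0.880). Without knockout replicate 3 there were 6 apart lower and 0 higher, beside 10% and 10.5% of all genes.

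Of 23 measured interferon-gamma and IRF1-linked genes 4 lay apart lower and 0 higher, beside 4.25% and 6.67% of all genes. In this list 0 passed, and 15 lay below 0, with a median of -0.35. Psmb9, an immunoproteasome subunit whose promoter IRF1 binds, read 10.79, 11.00 and 11.18 in wildtype and 9.67, 10.17 and 10.09 in knockout, a difference of -1.01 (SE 0.29; adjusted p = 0.887). Irgm1 and Iigp1, interferon-induced GTPases, differed by -1.60 (SE 0.52) and -1.12 (SE 0.51), and each had all knockout arrays below all wildtype arrays. The list's median was -0.35 without knockout replicate 3, with 4 apart lower beside 10% of all genes. It was -0.20 both without wildtype replicate 1 and with probe sets averaged per gene. The summed level of the neutrophil markers given above was higher in each knockout array, with groups apart for 4 of the 11 markers. The part of these markers in the lists was not tested.

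The 22 measured genes reported as targets of IRF4 or IRF8 did not lean to a side: 12 lay below 0 and 10 above, with a median of -0.0058 that lay between -0.014 and 0.064 when 1 array was left out and at 0.11 with probe sets averaged per gene, and 0 passed. Cebpa, a myeloid factor that IRF8 is known to restrain, read 3.79, 3.60 and 3.47 in wildtype and 7.46, 9.89 and 5.70 in knockout (difference 4.06, SE 0.98; adjusted p = 0.887). Cybb, the catalytic subunit of the phagocyte oxidase, read 3.35, 3.39 and 3.48 in wildtype and 5.81, 3.67 and 9.84 in knockout (difference 3.03, SE 1.41). These 2 of 22 (9.09%) were the genes with groups apart, both higher in knockout, beside 10.9% of all genes. The lymphoid targets Pax5, Ebf1 and Prdm1 differed by -0.13, -0.12 and 0.095, with overlapping groups.

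**Figure D4:**
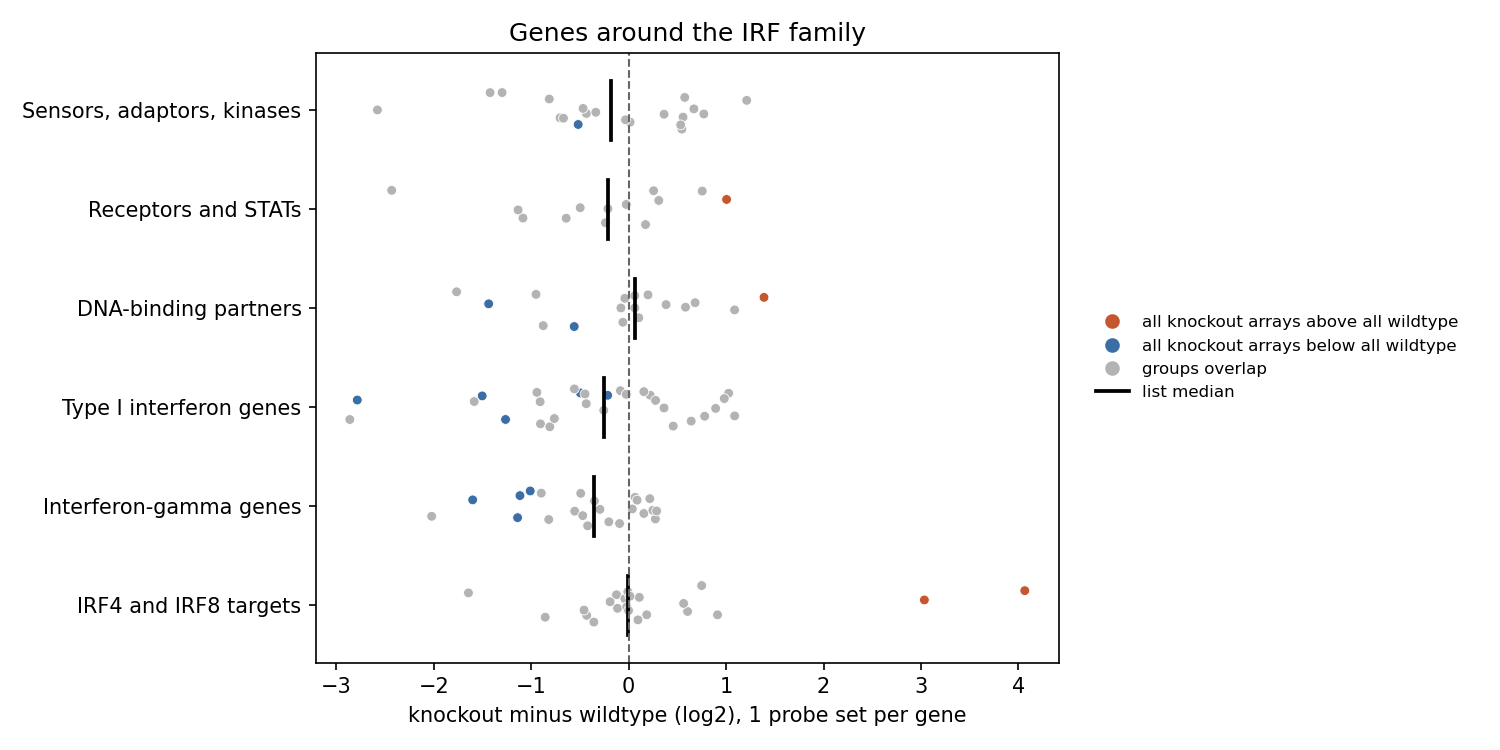
Knockout minus wildtype differences (x axis, log2) of the measured genes of 6 lists around the IRF family, 1 point per gene, with a black bar at each list's median and colour for groups that do not overlap. The lists of type I interferon and interferon-gamma genes hold 5 and 4 genes with all knockout arrays below all wildtype arrays and 0 above. Over all genes 4.25% lay apart lower and 6.67% higher. List medians run from -0.35 to 0.062.

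The genes most like Irf8 in their pattern over the 6 arrays were sought by the same root mean square measure, among 6437 genes that varied at least as much as 1448452_at. The closest were Iffo1 (0.14), Snap47 (0.22) and Cfap300 (0.25), in log2 units. Iffo1, the nearest, read 5.37, 6.91 and 5.50 in wildtype and 5.32, 7.17 and 6.89 in knockout, high in the same 3 arrays as Irf8. With 6 arrays many genes come close by this measure, 55 of them within 0.5.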

How the data were processed

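The authors deposited an Affymetrix mouse array table of log2 expression values, with a row per probe set and a column per array. Per the submitters' processing notes, the tools were RMA, Affymetrix Expression Console and Partek; versions, settings and order were not given in the sources used here. By its design, RMA summarises probes after background correction and compresses differences of dim probe sets. Per the labels' protocols, small amounts of RNA were amplified over the whole transcriptome. The scale was read from the values.

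Of 45037 probe sets, 34945 named 1 gene and entered the tests. The knockout minus wildtype difference was fitted with limma 3.58.1 in R 4.3.3 (lmFit, then eBayes with trend), two-sided, with Benjamini-Hochberg adjustment over all 34945 probe sets and a threshold of 0.05; the fit was tested on simulated data. Lists used, per gene, the probe set with the highest mean (18193 genes). No filter on level was applied, and the number of arrays limits the precision. Named list genes are up to 3 per direction with the smallest unadjusted p among those whose groups do not overlap, otherwise the 1 with the smallest p; genes named outside this rule are Stat2 and the IRF2-binding proteins, chosen after their values were seen, Spi1, Pax5, Ebf1 and Prdm1, and the sort, lineage and dendritic cell markers. The members and lists were chosen with earlier results of these data known. Promoter letters were matched by symbol with Python 3.11.15.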

Additional observations from a re-analysis of the deposited data

How the results depend on the processing

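The count of Irf probe sets past the threshold was 0 under every alternative run, with adjusted p for single probe sets never under 0.786. These covered the variance moderation, array weights, the probe set choice, a filter on level, all 45037 probe sets, quantile normalization, median centring, a replicate block and leaving out each array. Over all probe sets the count was also 0, except that 1 gene, Zfp229 (adjusted p = 0.0470 in limma), passed when probe sets were averaged per gene. For the pathway lists it was 0 in each setting tried. With the replicate block 0 probe sets passed. Same-numbered samples did not visibly deviate together (correlations across probe sets of -0.020, 0.0056 and -0.0011). With 3 arrays per group, centred within each group, this cannot exclude that the numbers pair samples.

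The direction of Irf5 1460231_at changed, to 0.0016, with quantile normalization. The mean of both Irf4 probe sets was 0.25, opposite in sign to the -0.15 of 1421174_at, since 1421173_at entered that mean at 0.65. Leaving out 1 array gave ranges that crossed 0 for Irf1 (-0.093 to 0.86), Irf2 (-0.55 to 0.082), Irf4 1421174_at (-0.42 to 0.10), Irf5 1449678_at (-0.78 to 0.27), Irf5 1460231_at (-0.31 to 0.15) and Irf8 1416714_at (-0.20 to 0.63), and kept the sign for the other 8 probe sets. The cause was not tested. The number of Irf probe sets with an unadjusted p under 0.05 was 0 in 5 of 9 other settings; 3 of these (1 probe set per gene, averaged probe sets, a filter on level) do not test Irf4 1421173_at alone. With 1 array left out its unadjusted p was under 0.05 only without knockout replicate 1 (0.00695), and otherwise 0.0561 to 0.111; without wildtype replicate 2 the 1 probe set was Irf3 1438721_a_at (0.0391), and without knockout replicate 2 it was Irf9 (0.0388).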

Other observations

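The genes encoding IRF2-binding proteins, corepressors that IRF2 recruits, were measured by 8 probe sets, and 0 passed in limma. Irf2bp1 read 10.36, 10.04 and 9.35 in wildtype and 6.25, 9.87 and 8.33 in knockout, with overlapping groups (difference -1.77, SE 0.92; adjusted p = 0.902). The brightest of 4 Irf2bp2 probe sets stayed within 11.49 to 11.94 on all 6 arrays, the narrowest range of the Irf2bp2 probe sets, while 1433632_at spread from 4.28 (knockout replicate 3) to 10.70 (knockout replicate 1). The 2 other Irf2bpl probe sets differed by -0.24 and -0.18, opposite in sign to the 1.39 of the probe set used for its list, and both read at most 3.63 on every array.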
